A study of Mus musculus with 17 samples.

Results

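Transcript levels of 44 cell cycle and DNA replication genes were followed in leukaemia cells that carried 5 forms of the NF-kappaB subunit p65/RelA. The members were chosen by gene name on the array, control spots left out, and the brightest probe stood for each gene. The genes were split by textbook role into 21 G1/S and replication genes and 23 mitotic genes, and these 2 classes were compared across the 5 constructs. Ccna2, Ccnf, Foxm1 and Top2a, which act from S or G2 on, were counted as mitotic. Of the 44 genes, 41 could be tested, 19 of the first class and 22 of the second, out of 15259 genes tested in the whole series. All 41 were well above background and unsaturated on all 17 arrays, so none passed the filter on dim probes through 1 group alone. The other members were Ccnd1 (cyclin D1), well above background on 3 of 17 arrays, Ccne2 (cyclin E2), on 1 array, and Aurkb (Aurora B kinase), on 0 arrays.

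The RNA came from DA1-3b, a murine Bcr-Abl+ leukaemia cell line that the labels ascribe to the mouse strain C3H eOuJ, and each of the 17 RNA samples, labelled with Cy3, was run on its own 1-colour Agilent array. All cells thus shared the Bcr-Abl background and a transfected p65/RelA plasmid. The constructs were wild-type p65 (WT, 4 arrays), the mutant D361E, which the series describes as not cleavable (4 arrays), the fragment 1-361 (3 arrays), the fragment 362-549 (3 arrays) and both fragments together (1-361+362-549, 3 arrays). The treatment text also names an empty plasmid, which was not analysed here, so every difference is against another p65 construct and WT served as the reference. The labels give neither the promoter of the plasmids, nor the time after transfection, nor whether each line is 1 clone or a pool. They do not say that the samples were separate cultures, so each p-value rests on a spread between arrays that can be technical in part. Arrays of a construct are listed in the order of the rounds defined next, except those of 1-361, which are listed as the second, the third and the first. Levels are log2 processed signals relative to the 75th percentile of the array, and a level of 0 therefore equals that percentile.

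Each sample title opens with a number, and the numbers 2 to 6, 8 to 12 and 14 to 18 each run once through the 5 constructs, while 20 and 21 hold WT and D361E. These sets are called the first, the second, the third and the fourth round, although the labels do not say what the number stands for. The arrays of the third round lay on 5 different slides. Rela itself showed overlapping levels in all 5 constructs, with group means from 4.74 in D361E to 4.86 in 1-361+362-549, so its probe does not tell the constructs apart. The haematopoietic markers Ptprc, Spi1 and Csf2rb were well above background on every array and Kit on none, whereas the epithelial markers Epcam, Krt8 and Krt18 were dim on every array.

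As background, cells enter S phase when D cyclins with CDK4 or CDK6, and then cyclin E with CDK2, phosphorylate the retinoblastoma protein and release E2F transcription factors. E2F targets include the genes of origin licensing (Cdc6, Cdt1 and the MCM helicase), of nucleotide supply and of the replication fork. Genes of G2 and mitosis are switched on later by the MuvB complex with B-MYB and FOXM1, often through promoters that hold a CHR element (cell cycle genes homology region) and CCAAT boxes. Mitotic transcripts therefore peak later in the cycle than G1/S transcripts in dividing cells.

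The cells with both fragments had the highest mean level of both classes. Against WT, 36 of 41 members had a positive difference, including all 22 mitotic members, and the median difference was 0.48 for G1/S and replication genes and 0.39 for mitotic genes, against 0.04 over all genes. Leaving out single arrays moved the first median between 0.11, without the third WT array, and 0.62, without the third array with both fragments, and the second between 0.28 and 0.47. Only Melk and Foxm1 passed the test in limma's 5-group model with Benjamini-Hochberg adjustment over all genes, both higher, where 1.99% of all genes were called higher and 3.14% lower. No G1/S or replication gene passed. At an unadjusted p under 0.05 there were 10 members, 3 of 19 in the first class and 7 of 22 in the second, where 18.0% of all genes stood at such a p. An F-test that joined all 4 comparisons with WT called the same 2 members, and 8.90% of all genes.

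Melk encodes maternal embryonic leucine zipper kinase, whose transcript peaks in mitosis. In the cells with both fragments its levels were 0.94, 1.14 and 0.08. The WT arrays read -0.64, -0.62, -1.31 and -0.45, the D361E arrays -1.11, -0.79, -0.96 and -0.06, the 1-361 arrays -0.74, -0.95 and -1.05, and the 362-549 arrays -1.10, -0.70 and -1.01. All 3 arrays with both fragments lay above all 14 others, and the lowest of them came close to the fourth D361E array. The difference from WT was 1.47 ± 0.28 (SE, limma adjusted p = 0.00531), and it was 1.58, 1.75 and 1.38 within the 3 rounds. Leaving out each array of either group in turn gave differences of 1.26 to 1.79, all called.

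Foxm1 encodes the forkhead transcription factor that drives G2/M genes. Its levels were 1.11, 1.12 and 1.18 with both fragments and 0.50, 0.45, 0.46 and 0.49 in WT. D361E gave 0.21, 0.10, 0.54 and 0.67, 1-361 gave 0.42, 0.73 and 0.33, and 362-549 gave 0.40, 0.47 and 0.79. The 3 arrays with both fragments again lay above every other array, and the WT arrays were nearly equal. Foxm1 was higher than in WT by 0.66 ± 0.15 (SE, limma adjusted p = 0.0184), and by 0.60, 0.67 and 0.72 within the rounds. That call was lost without the first or the second array with both fragments or without the second WT array (adjusted p up to 0.0672), which left 1 member called. A second Foxm1 probe gave a difference of 0.50.

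Tyms (thymidylate synthase, which makes dTMP) and Rrm2 (the regulatory subunit of ribonucleotide reductase, which supplies deoxynucleotides) came next among the replication genes. Tyms read -2.0, -1.87 and -2.46 with both fragments and -2.85, -2.95, -2.68 and -2.58 in WT, with a difference of 0.66 ± 0.18 (SE, limma adjusted p = 0.0507). The 2 groups did not overlap. Rrm2 read 4.41, 4.31 and 4.55 with both fragments and 3.92, 3.76, 3.82 and 4.13 in WT, with a difference of 0.51 ± 0.16 (SE, limma adjusted p = 0.0936). These 2 were the G1/S and replication members whose arrays with both fragments all lay above all WT arrays. Among mitotic genes 9 of 22 had groups that did not overlap, and the total of 11 of 41 members compares with 9.23% of all genes.

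**Figure D1:**
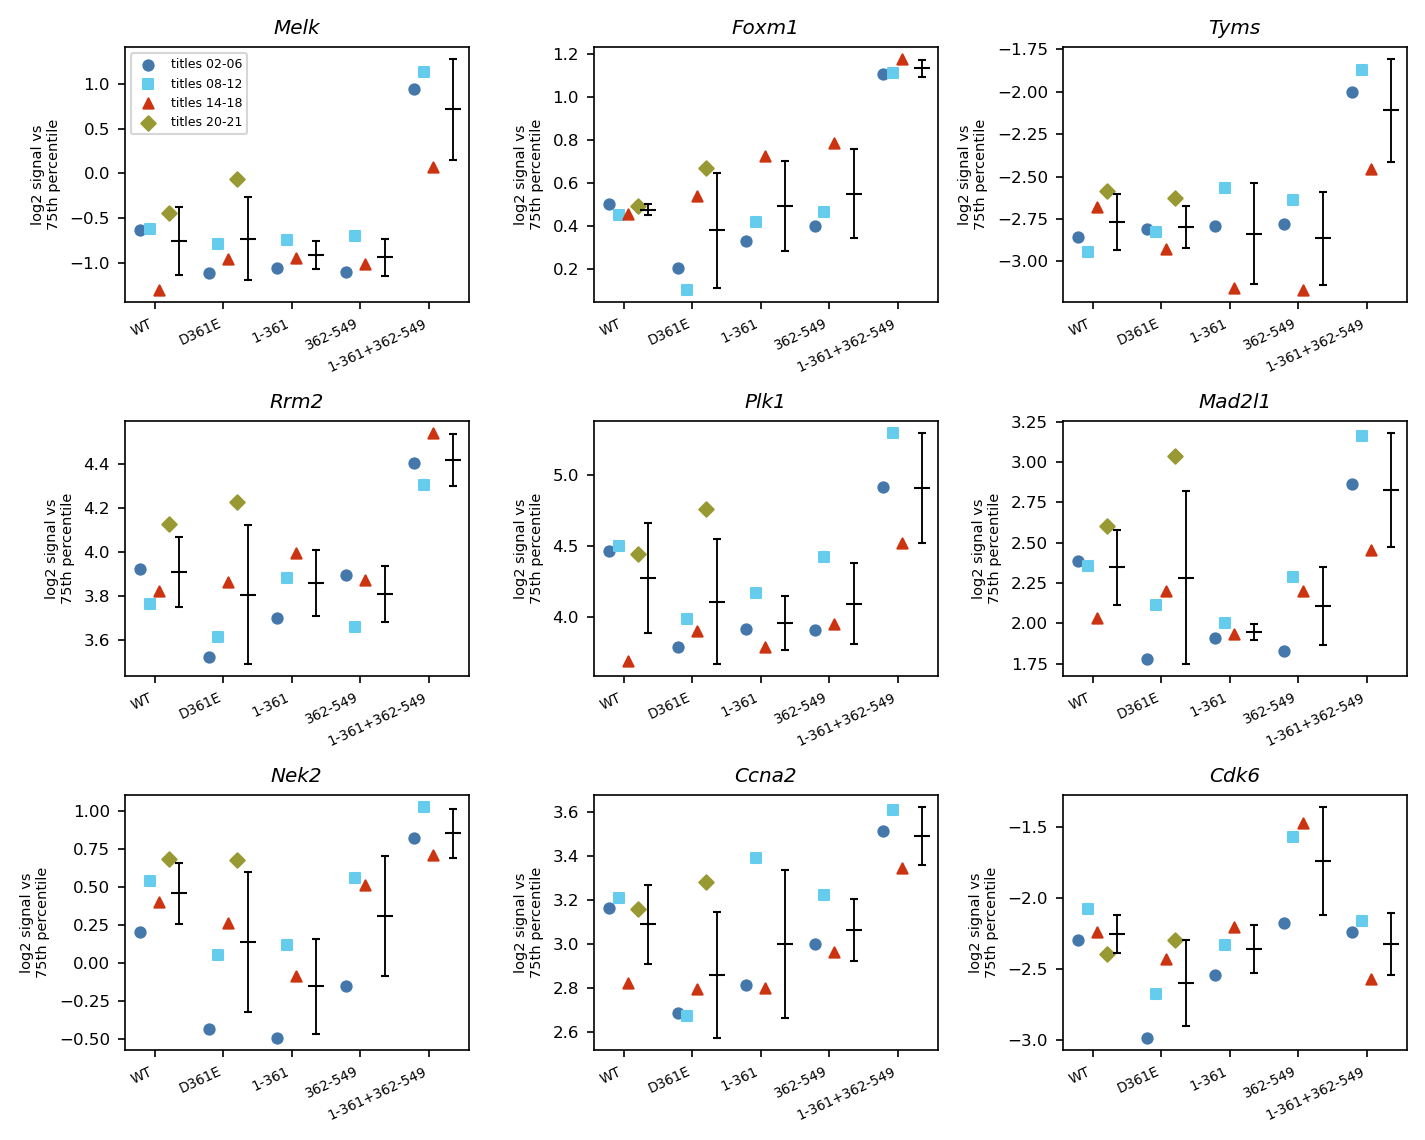
Level of 9 named members on each of the 17 arrays (log2 processed signal relative to the array's 75th percentile, vertical axis) by p65 construct (horizontal axis); colours and shapes mark the rounds of title numbers, and the black bars to the right of the points are the mean and SD of the group. Melk and Foxm1 are higher on all 3 arrays with both fragments than on any other array, while Cdk6 is highest in 362-549.

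Same-numbered arrays of WT and of the cells with both fragments deviated together from their group means, so the round was also fitted as a block. The round term was fitted over all 17 arrays and shared by the 5 constructs, so its estimates are not the means of the within-round differences. Rounds did not act equally in all constructs. The third-round difference of Mcm3, for example, ran from -0.36 in D361E to -1.37 with both fragments. The block changed the count of calls. With the block, 31 of 41 members passed the limma test at adjusted p under 0.05, 30 of them higher and 1 lower, where 17.0% of all genes were called higher and 13.7% lower. Of the G1/S and replication genes 13 of 19 were higher and 1 lower, with a median difference of 0.66. Of the mitotic genes 17 of 22 were higher and 0 lower, with a median of 0.47, against 0.03 over all genes. In each of the 3 rounds singly, 33 of 41 members (13 of 19 and 20 of 22) were higher with both fragments than in WT, where 30.0% of all genes were.

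By role, the MCM helicase that unwinds DNA at the fork rose as a whole in the blocked fit, since all 6 subunits passed. The differences ran from 0.44 ± 0.14 (SE) for Mcm6 to 0.92 ± 0.19 (SE) for Mcm5, with limma adjusted p from 0.00202 (Mcm7) to 0.0331 (Mcm6). Mcm5 stood at 4.75, 4.74 and 3.16 with both fragments and at 3.69, 3.46, 2.78 and 4.24 in WT. The array of the third round was the lowest in both groups, so the groups overlapped although the within-round differences were 1.06, 1.27 and 0.38. The sliding clamp Pcna rose by 0.76, the ribonucleotide reductase subunits Rrm1 and Rrm2 by 0.70 and 0.62, and Tyms by 0.71. All 4 of these fork and nucleotide supply genes passed with the block.

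The regulators of G1/S were mixed. Ccne1 (cyclin E1) rose by 0.73 ± 0.21 (SE, adjusted p = 0.0209), the transcription factor E2f1 by 0.51 and Cdk4 by 0.66 in the blocked limma fit. Ccnd3 (cyclin D3) fell by 0.42 on the log2 scale (adjusted p = 0.0187), and its second probe gave a difference of -0.28 without the block. The licensing factors did not pass, with blocked differences of 0.10 for Cdt1, which loads the helicase, and -0.08 for Cdc6, which recruits it to origins. The 2 probes of Cdc6 disagreed, at -0.28 and 0.38 against WT without the block. Cdk2 (0.27), Cdk6 (-0.05) and Ccnd2 (-0.31) did not pass either.

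Among mitotic genes, the kinases that drive mitotic entry and spindle assembly passed with the block. Plk1 (Polo-like kinase 1) rose by 0.77, Aurka (Aurora A) by 0.58, Nek2, a centrosomal kinase, by 0.52 and Melk by 1.63. Ccna2 (cyclin A2), Ccnb1 (cyclin B1), Ccnf (cyclin F) and Cdk1 rose by 0.47 to 0.51, whereas Ccnb2 (0.34, adjusted p = 0.097) did not pass. A second Cdk1 probe, well above background on 14 arrays, gave 0.13 without the block, against 0.36 for the brightest. Within the 3 rounds that second probe gave 0.06, -0.02 and 0.55. Of the spindle checkpoint, Mad2l1 rose by 0.65, Ttk by 0.47 and Bub1b by 0.34, and Bub1 (0.27, adjusted p = 0.132) did not pass. The other Mad2l1 probes gave larger differences from WT than the brightest one, 1.04 and 0.91 against 0.48 without the block. The motors Kif11 and Kif20a, the survivin gene Birc5, the APC activator Cdc20, the topoisomerase Top2a and Foxm1 also passed, by 0.37 to 0.71. Cenpe (0.29), Cenpf (0.03) and the proliferation marker Mki67 (-0.05) did not.

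**Figure D2:**
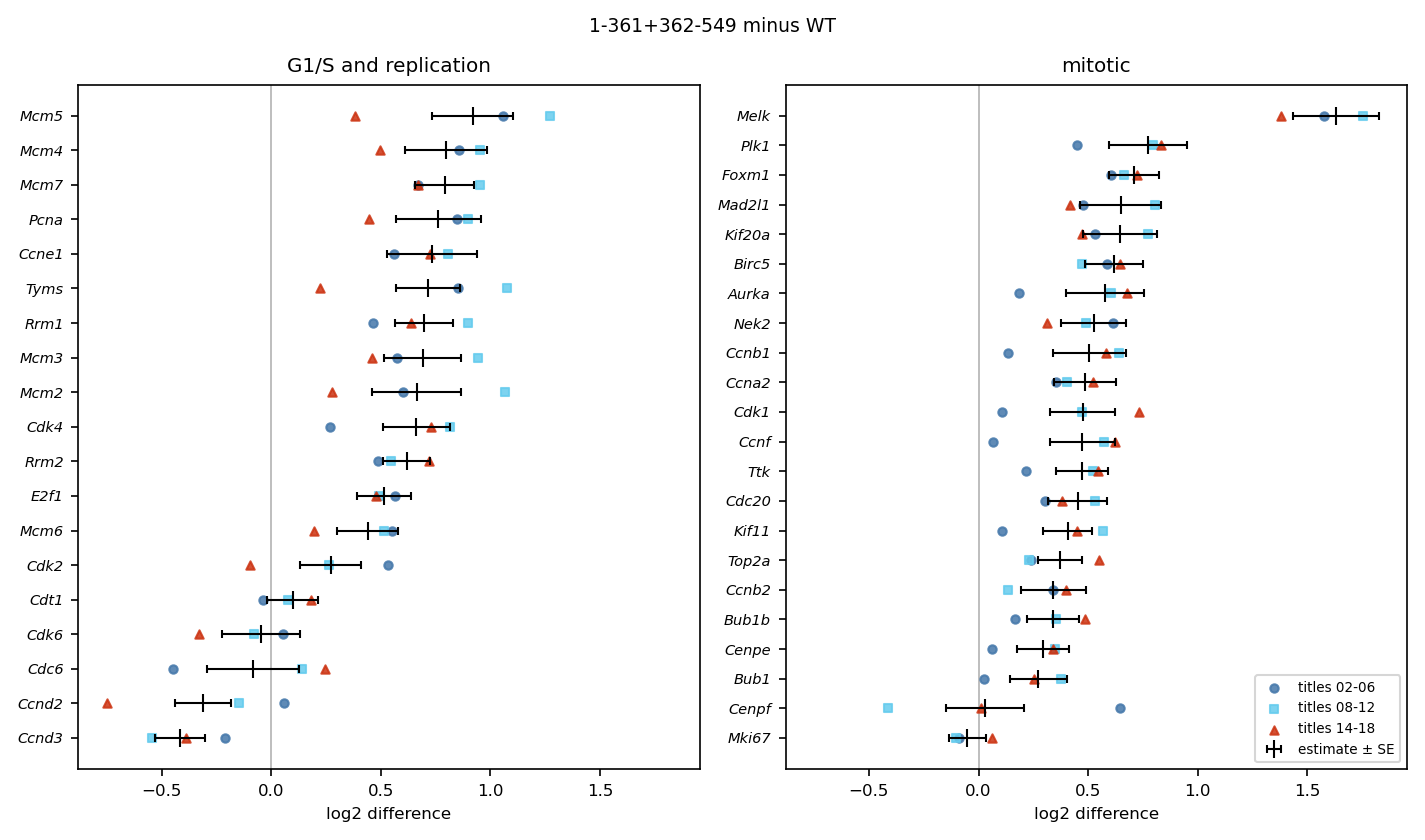
Difference between the cells with both fragments and WT for each of the 41 tested members (horizontal axis, log2 difference; members ordered by the estimate within each class). Coloured points are the differences within the first, the second and the third round, and the black mark is the estimate ± SE of the limma fit with the round as a block. The points lie mostly right of 0 in both classes, Melk is furthest right, and Ccnd3 and Ccnd2 lie furthest left.

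Some measured differences went along with the group that carried both fragments. Its arrays were brighter, with a mean 75th percentile of 1042 (847 to 1214) against 909 (773 to 1024) in WT and means of 678 to 781 in the other constructs. On unscaled signals the median difference from WT over all genes was 0.23 rather than 0.04, so unscaled changes are best read against that shift. The differences given above are scaled, and their median over all genes was 0.04, or 0.03 with the round as a block. The summed haematopoietic markers (6 genes) lay at 4.46 to 5.10 in these cells and at 5.69 to 5.93 in WT. The summed mast cell or basophil markers (5 genes, Ms4a2 dim on all arrays) lay at -2.90 to -1.91 against 0.93 to 1.85. The summed megakaryocyte markers (3 genes, Pf4, Itga2b and Gp9, all well above background) lay at 6.72 to 7.38 against 5.21 to 5.54. The summed B cell markers (4 genes, all but Cd79b dim on all arrays) lay at 1.175 to 1.367 against 0.45 to 0.89. The summed T cell, erythroid, fibroblast and epithelial markers overlapped between these cells and WT. The part of array brightness and of these markers in the results was not tested. In bulk RNA, fewer cells of a type and less RNA per cell cannot be told apart.

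Slides held 2 to 4 arrays of several constructs each. With the slide as a fixed block, 0 members passed against WT in limma (0.419% of all genes were called higher). Melk then differed by 1.53 (adjusted p = 0.0936) and Foxm1 by 0.56 (adjusted p = 0.344). With slide and round both as blocks 10 members passed, all higher, where 5.99% of all genes were called higher. Every slide held its arrays from different rounds, so a difference within a slide also holds the round. Slide 3 was the one with both constructs, with the second-round array of both fragments and the first-round array of WT. These gave median differences of 0.53 for G1/S and replication genes and 0.53 for mitotic genes, with 1.77 for Melk and 0.61 for Foxm1. With normexp background correction in place of the scanner's processed signal, the blocked fit called 4 members, all higher (2.37% of all genes were called higher), and the medians were 0.52 and 0.43.

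Against each of the other 3 constructs the cells with both fragments were higher too, and no member passed as lower. The comparisons share the 3 arrays with both fragments, so they are not separate evidence. Against D361E, 5 of 41 members were higher (Melk by 1.45, Foxm1 by 0.76, Tyms by 0.69, Ccna2 by 0.63 and Rrm2 by 0.61), where 4.31% of all genes were called higher and 5.37% lower. Without the fourth D361E array the count was 17. It was 2 without the first or the second array of either group and 3 without the third D361E array. The calls of Ccna2, Rrm2 and Tyms were each lost without any one of 5 of the 7 arrays, and those of Melk and Foxm1 were kept throughout. Against 1-361, 6 members were higher (Melk by 1.63, Nek2 by 1.01, Plk1 by 0.95, Mad2l1 by 0.88, Tyms by 0.73 and Foxm1 by 0.64), where 4.65% were called higher and 6.49% lower. That count was 11 without the third array with both fragments. It was 1 without the first or the second of these or without the first-round array of 1-361, 2 without the third-round and 3 without the second-round array of that construct. Plk1 and Mad2l1 were lost in 5 of 6 such fits, Nek2, Tyms and Foxm1 in 4, and Melk in 0.

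Against 362-549, 4 members were higher, namely Melk by 1.66 ± 0.30 (SE, limma adjusted p = 0.00259), Tyms by 0.75, Rrm2 by 0.61 and Foxm1 by 0.58, where 5.66% of all genes were called higher and 8.91% lower. The count was 1 without the first or the second array with both fragments, 2 without the second or the third array of 362-549, and up to 6 otherwise. The Rrm2 call was lost without any one of the 6 arrays (adjusted p from 0.0524 to 0.0892), that of Foxm1 in 4 of 6 fits, that of Tyms in 3 and that of Melk in 0. Same-numbered arrays of these constructs also deviated together, and with the round as a block 27 members passed, 25 higher and 2 lower, where 18.6% of all genes were called higher and 21.2% lower. The members called lower were Ccnd3 (-0.38) and Cdk6 (-0.58). In each of the 3 rounds 31 of 41 members were higher, against 27.0% of all genes. With slide and round both as blocks 6 passed, 5 higher and 1 lower, and Rrm2 and Tyms were not among them (adjusted p = 0.0867 and 0.0696). Of all 15259 genes, 852 were called higher and 1245 lower in that fit. With the slide alone as a fixed block 0 members passed against 362-549, 2 against D361E and 1 against 1-361, all higher, where 0.616%, 1.81% and 1.02% of all genes were called higher.

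Several members called in these comparisons have levels worth setting out. Plk1 read 4.92, 5.30 and 4.52 with both fragments, 4.17, 3.79 and 3.92 with 1-361 and 3.91, 4.42 and 3.95 with 362-549. In WT it read 4.47, 4.50, 3.69 and 4.44, and in D361E 3.79, 3.98, 3.90 and 4.76. The lowest array with both fragments was just above the highest WT array and below the fourth D361E array. Mad2l1, which encodes a spindle checkpoint protein that inhibits the APC, read 2.87, 3.16 and 2.45 with both fragments and 2.00, 1.93 and 1.91 with 1-361, without overlap. Its arrays read 2.39, 2.36, 2.04 and 2.61 in WT, 1.78, 2.11, 2.20 and 3.04 in D361E, and 1.83, 2.29 and 2.20 in 362-549.

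Nek2 was lowest with 1-361, at 0.12, -0.09 and -0.50, and highest with both fragments, at 0.82, 1.03 and 0.71. WT lay at 0.21, 0.54, 0.40 and 0.68, D361E at -0.43, 0.05, 0.26 and 0.68, and 362-549 at -0.15, 0.56 and 0.52. The 3 groups between these ends overlapped one another. Ccna2 lay at 3.52, 3.61 and 3.35 with both fragments against 2.69, 2.67, 2.80 and 3.28 in D361E, of which the fourth array came closest to the higher group. It lay at 3.16, 3.21, 2.82 and 3.16 in WT, at 3.39, 2.80 and 2.81 in 1-361 and at 3.00, 3.22 and 2.96 in 362-549. Tyms and Rrm2 stood at -2.57 and 3.88, -3.16 and 4.00, and -2.79 and 3.70 on the 3 arrays of 1-361. On those of 362-549 they stood at -2.78 and 3.89, -2.64 and 3.66, and -3.17 and 3.87. In D361E Tyms read -2.81, -2.83, -2.93 and -2.63 and Rrm2 3.52, 3.61, 3.86 and 4.23. For both genes, all 3 arrays with both fragments lay above all others.

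For the single forms of p65, no difference from WT passed the test. In limma, 0 of 41 members passed in D361E, 1-361 or 362-549 against WT, where 0.485%, 0.714% and 0.714% of all genes were called. At an unadjusted p under 0.05 there were 0, 1 and 1 members, where 5.01%, 7.70% and 8.84% of all genes stood at such a p, with Nek2 lower with 1-361 and Cdk6 higher with 362-549. The median differences were 0.04, -0.11 and -0.07 for G1/S and replication genes and -0.10, -0.16 and -0.03 for mitotic genes. The sign of the first 3 rested on single arrays. They ran from -0.21 (without the third WT array) to 0.21 (without the fourth) for D361E, from -0.36 (without the third WT array) to 0.10 (without the third-round array of 1-361) for 1-361, and from -0.30 (without the third WT array) to 0.12 (without the third array of 362-549) for 362-549. Between 1-361 and D361E (1.02% of all genes called) and between 362-549 and 1-361 (0.629% called) 0 members passed as well, with 0 and 1 at an unadjusted p under 0.05. There, 1266 and 844 of all 15259 genes stood at such a p. With the round as a block, 0 members passed in D361E against WT (1.63% of all genes called, 3 members at an unadjusted p under 0.05) and 0 in 362-549 against 1-361 (1.70% called, 4 members). In these blocked fits 1791 and 1889 of all 15259 genes stood at such an unadjusted p.

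Cdk6, which with D cyclins opens the G1/S switch, was the exception among single forms. Its levels were -2.18, -1.57 and -1.47 with 362-549 and -2.99, -2.68, -2.43 and -2.30 with D361E, so the 2 groups did not overlap. The difference was 0.86 ± 0.20 (SE, limma adjusted p = 0.0437), the only member among the 1.28% of genes called in that comparison. The call was lost without any one of 5 of the 7 arrays. Levels were -2.30, -2.08, -2.24 and -2.39 in WT, -2.33, -2.21 and -2.54 with 1-361 and -2.24, -2.16 and -2.57 with both fragments. These 3 groups overlapped.

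Much of the spread of the G1/S and replication genes within constructs followed the rounds. On the third-round array of every construct their median level was the lowest of that construct, from -0.71 in WT to -0.32 with both fragments, each member centred over the 17 arrays. The fourth-round arrays were the highest of their constructs, at 0.46 in WT and 0.66 in D361E. The mitotic class had its lowest median on that array in 2 of 5 constructs, WT and both fragments, and the third-round medians ran from -0.26 to 0.25. Within constructs, the median SD of the G1/S and replication genes was 0.55 and fell to 0.18 once the round was in the model. For mitotic genes it went from 0.26 to 0.18, and for all genes from 0.30 to 0.20.

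**Figure D3:**
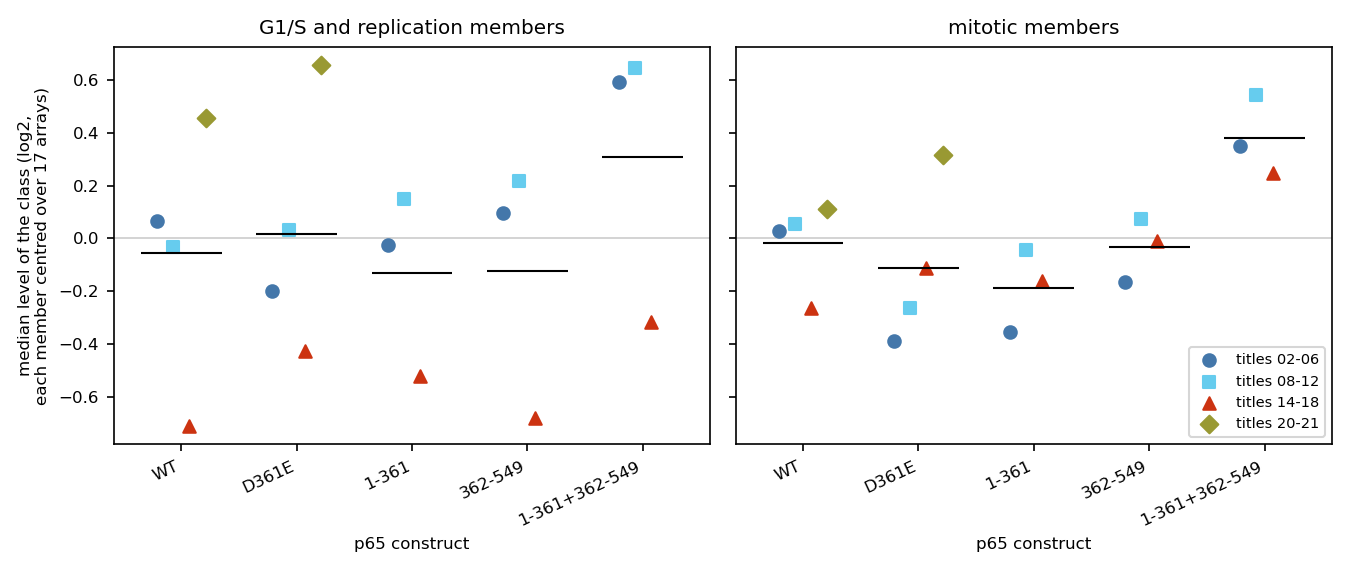
Median level of the 19 G1/S and replication members (left) and of the 22 mitotic members (right) on each array, each member centred on its mean over 17 arrays (log2, vertical axis), by p65 construct (horizontal axis); colours and shapes mark the rounds of title numbers and the black line is the mean of the group. The red triangles of the third round lie lowest in every construct on the left, from -0.71 to -0.32, and in 2 of 5 constructs on the right.

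The third round was set against the mean of the first and second in a limma model with construct and round, a comparison added after the levels had been seen. Of 41 members 25 passed, 21 lower and 4 higher, where 20.4% of all genes were called lower and 21.4% higher. The 2 classes were unlike in their counts. Of the G1/S and replication genes 14 of 19 were lower and 1 higher, with a median of -0.54, and of the mitotic genes 7 of 22 were lower and 3 higher, with a median of -0.01. The median over all genes was 0.06. In all 5 constructs alike 13 of 19 and 4 of 22 members were lower, where 20.5% of all genes were. Between the second and the first round 0 members passed in limma, with 6 at an unadjusted p under 0.05. Of all 15259 genes 4 passed, and 2521 stood at such an unadjusted p. With the slide as an added block 22 members were lower and 4 higher (21.3% and 25.1% of all genes). Without scaling 17 were lower and 1 higher (18.5% and 7.46% of all genes), and the 17 were 12 G1/S and replication and 5 mitotic members.

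Ccne1 showed the deepest fall. On the third-round arrays it read 0.64 in WT, 1.36 in D361E, 1.02 in 1-361, 0.10 in 362-549 and 1.36 with both fragments. On the other arrays it read 2.36 to 2.64 in WT, 2.38 to 3.14 in D361E, 2.39 and 2.40 in 1-361, 2.37 and 2.53 in 362-549, and 3.15 and 3.16 with both fragments. The difference was -1.68 ± 0.14 (SE, limma adjusted p = 9.33e-06), lower in 5 of 5 constructs. Cdc6 read -3.26, -2.64, -2.88, -3.46 and -3.02 on the third-round arrays in the same order of constructs. It read -1.83 to -1.17 in WT, -1.71 to -1.42 in D361E, -1.66 and -1.43 in 1-361, -1.36 and -1.26 in 362-549, and -2.0 and -1.69 with both fragments elsewhere. Its difference was -1.45 ± 0.14 (SE, adjusted p = 2.46e-05).

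E2f1, the licensing factor Cdt1 and the helicase subunits also fell, each lower in 5 of 5 constructs. Cdt1 differed by -0.99, E2f1 by -0.85, Mcm2 by -1.22, Mcm7 by -0.92, Mcm5 by -0.92, Mcm4 by -0.91, Mcm3 by -0.88 and Mcm6 by -0.50. Mcm6 read 5.50, 5.79, 5.47, 5.41 and 5.70 on the third-round arrays of WT, D361E, 1-361, 362-549 and both fragments. Its other arrays read 6.03, 5.97 and 6.44 in WT, 5.76, 6.18 and 6.68 in D361E, 5.91 and 5.70 in 1-361, 6.02 and 6.10 in 362-549, and 6.58 and 6.49 with both fragments. Rrm1 and Pcna fell by 0.54 and 0.53 on the log2 scale, and Tyms and Cdk2 by 0.27 and 0.28. Ccnd3 rose by 0.32 and was the only member of its class to do so. Rrm2 (0.15), Cdk6 (0.12), Cdk4 (-0.28) and Ccnd2 (-0.11) did not pass.

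Mitotic members moved less and in both directions. Ccnb1 fell by 0.40 on the log2 scale, Plk1 by 0.37, Melk by 0.36, Birc5 by 0.36, Bub1b by 0.31, Kif11 by 0.30 and Cdc20 by 0.26. Bub1 rose by 0.55, and Foxm1 and Cenpe rose by 0.23 each. Kif11, the kinesin that separates spindle poles, read 0.65, 0.66, 0.67, 0.91 and 1.09 on the third-round arrays of WT, D361E, 1-361, 362-549 and both fragments. On the other arrays it read 1.25, 0.95 and 0.91 in WT, 0.87, 0.78 and 0.99 in D361E, 0.82 and 1.12 in 1-361, 1.32 and 0.97 in 362-549, and 1.36 and 1.52 with both fragments. In every construct the third-round array was the lowest.

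**Figure D4:**
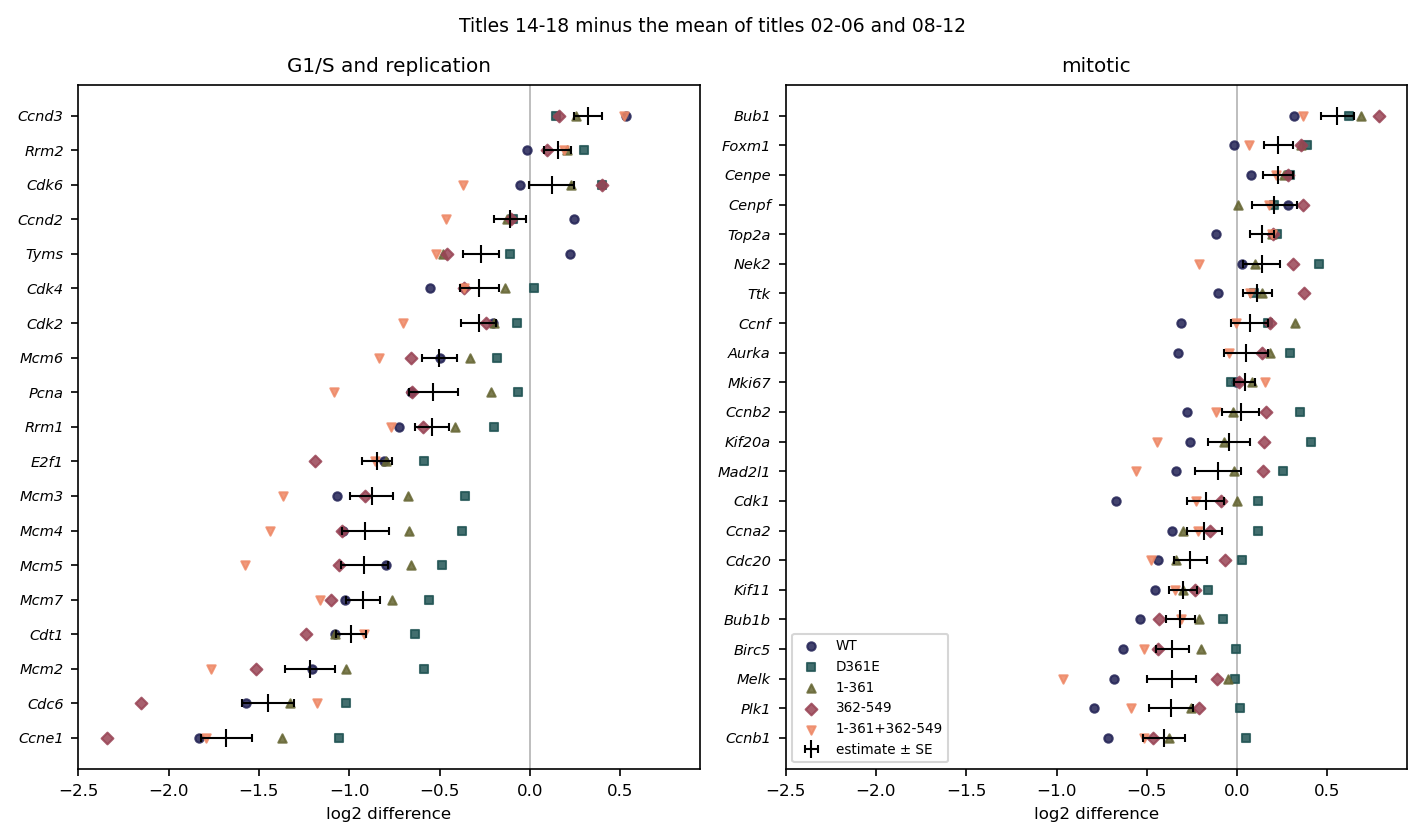
Difference of the third round from the mean of the first and the second for each of the 41 tested members (horizontal axis, log2 difference), with 1 point for each construct and the black mark for the estimate ± SE of the limma model with construct and round. Points of the G1/S and replication genes lie left of 0 for most members, and points of the mitotic genes lie on both sides of 0. Ccne1 is furthest left, with its estimate at -1.68 and its 362-549 point at -2.34.

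The promoters of the 2 classes differed in sequence as well. RefSeq windows of GRCm38.p6, from 250 bases before to 50 bases after the start, were found for 36 of the 44 members, 17 of the first class and 19 of the second. A gene was counted once, if any of its windows held the motif. The E2F motif was TTTGGCGC, TTTCCCGC, TTTGCCGC or TTTCGCGC on either strand. It stood in 7 of 17 G1/S and replication members (41.2%) and in 1 of 19 mitotic members (5.26%). Over all 27025 genes with a window the share was 2.6%. A CHR motif (TTTGAA or TTCGAA on either strand) stood in 2 of 17 (11.8%) and in 13 of 19 (68.4%). The share was 21.7% over all genes with a window. CCAAT on either strand stood in 58.8% and 84.2%, against 41.1%. CHR and CCAAT together stood in 11.8% and 68.4%, against 9.65%. A kappaB motif, the sequence that NF-kappaB binds, stood in 1 member of each class (5.88% and 5.26%), Mcm7 and Birc5. It stood in 9.55% of all genes with a window. Matches are letters in a window and do not show binding.

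**Figure D5:**
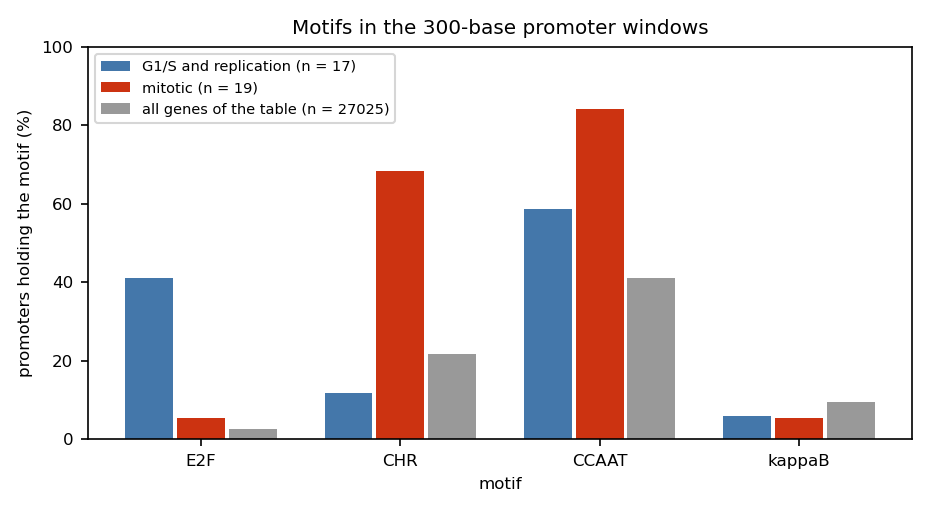
Share of genes (vertical axis, percent) with a 300-base promoter window that holds each motif. Bars are the 17 G1/S and replication members, the 19 mitotic members and all 27025 genes of the RefSeq table. E2F letters are most frequent in the first class (41.2%) and CHR letters in the second (68.4%).

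The windows of 5 members show the contrast. Mcm6 (chr1:128359656-128359955, minus strand) and Mcm3 (chr1:20820263-20820562, minus strand) belong to the helicase that was low in the third round, and their E2F matches are in capitals. The first capital stretch of Mcm6 holds 2 overlapping matches, on opposite strands. Plk1 (chr7:122159185-122159484, plus strand) and Ttk (chr9:83834439-83834738, plus strand) are mitotic kinases with a CHR match in capitals, that of Ttk read on the opposite strand. Melk (chr4:44300667-44300966, plus strand) had the largest difference between constructs, and 0 matches to E2F or CHR stood in its window.
Mcm6: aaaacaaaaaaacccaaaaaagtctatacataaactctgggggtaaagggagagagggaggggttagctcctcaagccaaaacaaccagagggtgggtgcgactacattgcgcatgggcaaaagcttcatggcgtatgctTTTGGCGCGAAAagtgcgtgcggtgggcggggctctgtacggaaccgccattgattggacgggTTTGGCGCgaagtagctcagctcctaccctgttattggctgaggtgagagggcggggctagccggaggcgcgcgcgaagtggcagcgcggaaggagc
Mcm3: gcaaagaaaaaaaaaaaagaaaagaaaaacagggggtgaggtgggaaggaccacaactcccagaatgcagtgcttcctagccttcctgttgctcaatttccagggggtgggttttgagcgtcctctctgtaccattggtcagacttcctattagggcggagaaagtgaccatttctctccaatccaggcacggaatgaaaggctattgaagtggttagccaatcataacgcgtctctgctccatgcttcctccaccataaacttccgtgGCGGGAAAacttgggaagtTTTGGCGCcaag
Plk1: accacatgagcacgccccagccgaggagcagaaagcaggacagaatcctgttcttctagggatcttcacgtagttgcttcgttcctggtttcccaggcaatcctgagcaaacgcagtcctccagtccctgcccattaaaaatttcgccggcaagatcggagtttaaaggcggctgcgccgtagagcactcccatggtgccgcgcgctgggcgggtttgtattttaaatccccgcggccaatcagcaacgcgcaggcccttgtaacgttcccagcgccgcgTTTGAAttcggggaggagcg
Ttk: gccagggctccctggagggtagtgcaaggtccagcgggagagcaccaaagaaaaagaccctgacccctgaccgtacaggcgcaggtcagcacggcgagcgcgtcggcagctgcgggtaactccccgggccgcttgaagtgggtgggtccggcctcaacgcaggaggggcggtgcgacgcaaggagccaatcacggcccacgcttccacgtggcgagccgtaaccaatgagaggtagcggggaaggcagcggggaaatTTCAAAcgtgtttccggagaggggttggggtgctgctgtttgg
Melk: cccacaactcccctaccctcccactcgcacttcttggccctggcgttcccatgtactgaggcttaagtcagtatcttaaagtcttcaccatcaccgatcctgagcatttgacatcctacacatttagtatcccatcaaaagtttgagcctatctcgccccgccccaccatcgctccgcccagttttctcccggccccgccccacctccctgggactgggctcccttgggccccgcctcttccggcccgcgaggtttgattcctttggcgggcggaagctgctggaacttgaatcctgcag
In the third round all 7 G1/S and replication members with an E2F match were called lower, with a median difference of -0.92. Of the 10 without one 6 were lower, with a median of -0.41, where 20.4% of all genes were called lower. Those without a match include Ccne1, which fell most (-1.68), Mcm2 (-1.22) and E2f1 (-0.85), and also Ccnd3, which rose (0.32). In the blocked comparison of both fragments with WT, 4 of the 7 with a match and 8 of the 10 without one were higher, where 17.0% of all genes were. Of the mitotic members with a CHR match, 4 of 13 were lower in the third round (median 0.04) and 9 of 13 were higher with both fragments (median 0.41). Of the 6 without one, 3 were lower (median -0.23) and 5 were higher (median 0.57).

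Genes around the members in the same pathways, 85 of 87 of them tested, were counted in the same fits. Against WT, 0 passed in D361E, 1-361 or 362-549, where 0.485%, 0.714% and 0.714% of all genes were called. With both fragments 3 passed, 2 higher and 1 lower, where 1.99% of all genes were called higher and 3.14% lower. Those were Cdkn2a, which encodes the inhibitors p16INK4a and p19ARF and fell by 1.73 on the log2 scale (limma adjusted p = 0.000595), Lin9 of the MuvB complex, which rose by 0.72 (adjusted p = 0.0431), and Dbf4, the activator of the origin-firing kinase CDC7, which rose by 0.52 (adjusted p = 0.037). With the round as a block 36 of the 85 were higher and 6 lower, where 17.0% of all genes were called higher and 13.7% lower. The CDK inhibitors and pocket proteins, which hold the cycle back, went the other way from the members, with 0 higher and 5 of 9 lower. The 5 were Cdkn2b (-2.07), Cdkn2a (-1.84), Cdkn1a (-0.60), Rb1 (-0.49) and Rbl2 (-0.47). Of the polymerases and fork proteins 11 of 16 were higher and 1 lower, of origin licensing and firing factors 8 of 15 were higher, and of kinetochore, spindle and cytokinesis genes 8 of 16.

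In the third round 32 of these 85 genes were lower and 12 higher, where 20.4% of all genes were called lower and 21.4% higher. Polymerases and fork proteins were lower in 12 of 16, among them Rpa2 (-1.09), a subunit of the single-strand binding complex, and Fen1 (-1.07), the flap nuclease of lagging-strand synthesis. Of the CDK inhibitors and pocket proteins 6 of 9 were higher, including Cdkn2b (1.22) and Cdkn1b (0.91), and 1 was lower (Rbl1, -0.54). Of the kinetochore, spindle and cytokinesis genes 1 of 16 was lower and 2 were higher. Mean array brightness was 770 in the third round and 801 and 907 in the first and second, and the part of brightness in the round difference was not tested.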

How the data were processed

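The members, roles and gene lists were chosen with earlier results of these data known. Per the file headers, the 17 arrays (design 026655, probes placed on mm9) were processed under protocol GE1_107_Sep09 by Feature Extraction 10.7.3.1 of Agilent, a version that the submitters' processing notes also name, and the deposited intensity values are background-subtracted, detrended signals on a linear scale, not scaled between arrays. Here, log2 signals minus the 75th percentile of each array were averaged over spots, without control and outlier spots, for 39429 probes. Probes were kept (19774) if at least 1 group had them well above background throughout. RefSeq GRCm38.p6 symbols named 27508 probes and 11921 kept the file's name. The brightest probe stood for each gene, and 15259 genes were tested with limma 3.58.1 in R 4.3.3 (5 groups, 10 contrasts, Benjamini-Hochberg, called at an adjusted p under 0.05). The test was checked on simulated data, with independent genes and either no round effect or a round effect equal in all constructs. Rounds did not act equally in these data, so the check does not speak for the blocked fit.

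Rounds came from the title numbers. They were taken as pairing 2 constructs where every same-numbered pair of arrays correlated above 0.1 in its deviations from the group means: D361E and WT (0.107 to 0.687), both fragments and WT (0.137 to 0.728), 362-549 and 1-361 (0.566 to 0.714), and both fragments and 362-549 (0.146 to 0.429). The members printed with every array were those called in any contrast and, for a role with none, the member with the smallest F-test p. Replicates are numbered in order of deposit. Alternatives covered scaling, background correction, filters, probes, slide, round, the groups fitted and single arrays left out. The number of arrays limits the precision.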

Additional observations from a re-analysis of the deposited data

Results flagged for a closer look

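In groups of 4 arrays, 86 tests for 1 array far from the other 3 (Dixon's ratio of gap to range) found 10. A single test gives about 1 in 20 by chance. These tests share the same arrays and rounds and are not independent, so the 10 are not read as an excess. In WT, replicate 3, the array of the third round, was low for Ccna2 (2.82, others 3.16 to 3.21), Ccne1 (0.64, others 2.36 to 2.64), Ccnf (2.22, others 2.51 to 2.54), Cdk1 (0.78, others 1.44 to 1.52), Cdt1 (3.33, others 4.36 to 4.46) and Plk1 (3.69, others 4.44 to 4.50). Mki67 was low on WT replicate 4, at 5.19 against 5.52 to 5.55. D361E replicate 4 was high for Cdk4 (5.03, others 4.03 to 4.18), Cdc20 (4.64, others 3.97 to 4.00) and Birc5 (5.56, others 4.69 to 4.79).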

How the results depend on the processing

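Counts of members called are given as 1-361+362-549 against WT, D361E, 1-361 and 362-549 in turn, where the main values were 2, 5, 6 and 4, followed by the F-test (main value 2). They were 0, 2, 1 and 0 and F 0 with the slide as a fixed block; 1, 2, 1 and 1 and F 1 with normexp or without a filter on dim probes; and 1, 0, 1 and 1 when only the groups compared were fitted. Without scaling they were 15, 16 and 23 in the last 3 contrasts and F 5, and with the mean of all probes 1 against WT and F 1. In those 3 contrasts without scaling, 2243, 1821 and 5140 of all 15259 genes were called higher and 360, 289 and 315 lower. Without the third round, a choice made after seeing the data, 10 members passed against 1-361, where 1174 of all genes were called higher and 1822 lower. Leaving out single arrays gave 1 to 3, 2 to 17, 1 to 11 and 1 to 6, and F 0 to 7. The Cdk6 call in 362-549 against D361E (1 member) went to 0 under quantile normalization, no scaling, normexp, both other filters, either slide block, the groups compared alone, without the third round, and in a range of 0 to 1 over arrays left out.

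With the round as a replicate block the counts were 31, 32, 31 and 27 and F 26 (4686, 6070, 5636 and 6076 and F 5512 over all genes). Combined after seeing the data with quantile normalization they were 25, 29, 27 and 24, with no scaling 29, 37, 34 and 35, and with the slide block 10, 33, 23 and 6. With normexp the block gave 4, 7, 6 and 4, and the cause of that drop was not tested. Over all 15259 genes, quantile normalization gave 2133, 2863, 2676 and 2896 higher and 2112, 2612, 2303 and 2500 lower. No scaling gave 2517, 6615, 5368 and 7719 higher and 723, 726, 642 and 538 lower. The slide block gave 914, 3104, 2231 and 852 higher and 1002, 3135, 2690 and 1245 lower. Normexp gave 361, 983, 633 and 704 higher and 546, 1502, 1104 and 1425 lower. Lowest pair correlations in the 6 contrasts where the round was not taken as a pairing ran from -0.18 to 0.07. The block changed no other call count. It gave G1/S and replication medians of 0.08 for 1-361 and 0.08 for 362-549 against WT (main values -0.11 and -0.07).

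Without scaling, mitotic medians were -0.32, -0.39 and -0.45 for D361E, 1-361 and 362-549 against WT, 0.90, 0.95 and 1.04 for both fragments against D361E, 1-361 and 362-549, and 1.16 for G1/S and replication genes in the last. With the block and no scaling, medians were 0.71 (mitotic, both fragments against WT), 1.01 and 1.05 (both classes, against D361E), 0.95 (mitotic, against 1-361), and 1.16 and 1.04 (both classes, against 362-549), and with round and slide blocks 0.23 (mitotic, against 362-549). Within slides, where the arrays of a pair also come from different rounds, G1/S and replication medians were 0.49 (1-361 against WT, slide 6), -0.59 and 0.88 (362-549 against WT, slides 5 and 6), -1.21 (1-361 against D361E, slide 3), 0.93 (both fragments against D361E, slide 4), and -0.42 and 1.17 (both fragments against 1-361, slides 2 and 3). Mitotic medians were -0.40 and 0.29 (D361E against WT, slides 1 and 3), -0.29 and 0.29 (362-549 against WT, slides 1 and 6), 0.33 and -0.47 (1-361 against D361E, slides 2 and 3), 0.28 (both fragments against D361E, slide 3), 0.43 (362-549 against 1-361, slide 6) and 0.31 (both fragments against 1-361, slide 2).

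Among the members printed with every array, the uncalled differences of Cdk6 and Cdc6 turned their sign against WT. Cdk6 (main value -0.07) was 0.12 without scaling, 0.056 without the third round, 0.025, 0.19 and 0.087 with the block and quantile, no scaling or normexp, 0.14 within slide 3, and -0.15 to 0.052 with arrays left out. Cdc6 (-0.28) was 0.047 with the mean of all probes, 0.15 and 0.017 with the block and no scaling or normexp, and -0.72 to 0.11 with arrays left out.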
